A study of Mus musculus with 2 samples.

Results

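The 7 microRNA genes of the miR-1, miR-206 and miR-133 set were followed in gastrocnemius, the large muscle of the calf. They are Mir206, Mir133b, Mir1a-1, Mir133a-2, Mir1a-2, Mir133a-1 and Mir1b. They were chosen by symbol and matched by Ensembl identifier among the 2202 microRNA genes counted. The series holds 2 small RNA libraries of 1 group, biological replicates 1 and 2, both from gastrocnemius of male B6CASTF1/J mice aged 2 months. The labels number the males separately but list both under 1 donor entry, so the spread between libraries may be partly technical. B6CASTF1/J mice are first-generation offspring of C57BL/6J crossed with CAST/EiJ, and no treatment or engineered allele is named. There is no contrast between conditions, so the data give each gene's level and how far the libraries differed.

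A microRNA gene is transcribed as a long precursor from which a hairpin is cut, and each arm of the hairpin can yield a short mature RNA that guides silencing of messenger RNAs. Positions 2 to 8 of the mature RNA, the seed, pair with the target. The genes studied here lie as neighbouring pairs, a miR-1 or miR-206 gene beside a miR-133 gene. Each pair is commonly described as made from 1 precursor transcript, which was not tested here. MyoD, myogenin, MEF2 and SRF are known regulators of genes in the set. In muscle, miR-1 and miR-206 are known for promoting differentiation, with Hdac4 and Pax7 among their targets, and miR-133 for restraining SRF. The miR-1 and miR-133a genes are active in heart and skeletal muscle, while Mir206 and Mir133b are known as skeletal muscle genes.

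The mature sequences that were found show in part which genes can be told apart by a short read. RefSeq entries (GRCm38.p6, the assembly also called mm10) were found for 3 of the 7 symbols, and the lines below run 5′ to 3′ with the seed in capitals.
mmu-miR-206-3p: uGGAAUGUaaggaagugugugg
mmu-miR-206-5p: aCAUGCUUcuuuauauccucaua
mmu-miR-1a-1-5p: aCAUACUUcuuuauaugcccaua
mmu-miR-133b-3p: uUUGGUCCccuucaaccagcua
mmu-miR-133b-5p: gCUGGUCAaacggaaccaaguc

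None of these 5 mature sequences occurred whole in the hairpin of another counted microRNA gene. The list lacks the 3p arm of Mir1a-1 and every arm of Mir1a-2, Mir133a-1, Mir133a-2 and Mir1b. It therefore cannot show whether reads of those arms can be told apart. The 5 listed sequences were not equally far from their nearest match in another gene. The 3p arm of Mir206 had 4 mismatches to its closest match, in Mir1a-1 and Mir1a-2, and its 5p arm had 3 to its closest, in Mir1a-1. The first 10 bases of miR-206-3p, seed included, stood unbroken in the hairpins of Mir1a-1 and Mir1a-2, and its seed letters were in none of the hairpins of the other 4 genes. Counted from 1 at the 5′ end of miR-206-5p, the differences from miR-1a-1-5p were G5A, C17G and U19C, the first of them inside the seed. The 3p arm of Mir133b had 1 mismatch to Mir133a-1 and to Mir133a-2, and its first 21 of 22 bases stood unbroken in another gene. Its 5p arm had 3 mismatches to the same genes.

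The hairpins of the pair on chromosome 1 are shown because they differ most in level while lying in exons of 1 long noncoding RNA gene. The mature arms are in capitals.
Mir206: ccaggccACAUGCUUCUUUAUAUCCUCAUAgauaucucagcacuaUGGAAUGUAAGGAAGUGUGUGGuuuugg
Mir133b: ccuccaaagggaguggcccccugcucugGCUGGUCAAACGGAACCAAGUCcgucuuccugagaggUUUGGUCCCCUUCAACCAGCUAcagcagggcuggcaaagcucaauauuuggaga

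Comparison of whole hairpins, read from the GENCODE M21 transcripts, set Mir206 apart from the other 6 genes. A stretch of 20 identical bases, in either direction, with a microRNA gene at another position was found for 6 of the 7 and not for Mir206. The longest run Mir206 shared with Mir1a-1 or with Mir1a-2 was 13 bases. Mir1a-1 and Mir1a-2 shared 28, at bases 45 to 72 of the Mir1a-1 hairpin, on its 3p side and beyond the 5p arm printed above. Mir133a-1 and Mir133a-2 shared 31. Mir133b shared 21 with each of these 2, at bases 66 to 86 of its hairpin, where its 3p arm lies. Mir1b shared 28 bases with Mir1a-1 on the reverse strand. Of the 20-base windows in each hairpin, 9 of 58 in Mir1a-1, 9 of 53 in Mir1a-2, 17 of 85 in Mir133a-2, 17 of 49 in Mir133a-1, 2 of 100 in Mir133b and 9 of 103 in Mir1b were shared. With windows of 22 bases Mir133b had none shared, which left 5 of the 7 genes sharing.

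This bears on every level below, because reads that match several places are not in the gene counts. Multi-mapping reads numbered 2788661 of 3708776 in replicate 1 (75.2%) and 10476420 of 14072300 in replicate 2 (74.4%). They were deposited as 1 total per library without gene names, so how many came from these 6 genes was not analysed here. Counts assigned to microRNA genes were 638779 and 2272132, and levels are given as counts per 1000000 of these (CPM). A read under 30 bases can hold a whole mature RNA, so counts were not divided by hairpin length, and a gene's count sums its arms. Intervals are exact 95% Clopper-Pearson intervals of counting error only. They treat each read as independent, so amplified reads that repeat 1 molecule would make them too narrow.

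Mir206 was the one abundant gene of the set, and it differed most between the libraries. It lies on chromosome 1 at 20679010 to 20679082, plus strand, in an exon of the long noncoding RNA gene Gm28653 (mm10, GENCODE M21). It had 12983 counts in replicate 1 and 109240 in replicate 2. These were 20325 CPM (19980 to 20674) and 48078 CPM (47800 to 48357), a mean of 34202 ± 19625 (SD, n = 2). Replicate 2 was the higher library, and the intervals of the libraries did not overlap. As a share of assigned counts Mir206 made up 2.03% and 4.81%, and per 1000000 of all reads, multi-mapping ones included, it had 3501 and 7763. By mean CPM it was the 10th gene of 2202, and it stood 12th in replicate 1 and 6th in replicate 2.

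The neighbours of Mir206 in mean level were less far apart between libraries. Just above it were Mir30a, at 37470 ± 4174 CPM, and Mirlet7i, at 37067 ± 325 CPM, and just below it Mir99a, at 31319 ± 4676 CPM, and Mir22, at 29380 ± 3072 CPM. All 4 lie within 1 SD of the Mir206 mean, so the place of Mir206 among these 5 genes is not fixed by the data. In replicate 1 Mir206 was below all 4, and in replicate 2 it was above all 4.

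Mir1a-2, a miR-1 gene, came next in the group at 265 ± 5.29 CPM (SD, n = 2). It lies on chromosome 18 at 10785481 to 10785552, minus strand, in an intron of Mir133a-1hg on the same strand and of Mib1 on the other. Replicate 1 had 167 counts, or 261 CPM (223 to 304), and replicate 2 had 611, or 269 CPM (248 to 291). The libraries were close and their intervals overlapped. Its rank by mean CPM was 101.

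The miR-133 genes and the other miR-1 gene had few assigned reads. Mir133b, on chromosome 1 at 20682769 to 20682887, plus strand, in an exon of Gm28653, had 14 counts in replicate 1 and 27 in replicate 2, or 21.9 CPM (12.0 to 36.8) and 11.9 CPM (7.83 to 17.3). Mir133a-1, on chromosome 18 at 10782909 to 10782976, minus strand, in an intron of Mir133a-1hg, had 10 and 28 counts, or 15.7 CPM (7.51 to 28.8) and 12.3 CPM (8.19 to 17.8). These 2 genes of miR-133, the SRF-restraining arm of the set, changed places between the libraries.

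Mir1a-1, on chromosome 2 at 180389048 to 180389124, plus strand, had 9 and 25 counts, or 14.1 CPM (6.44 to 26.7) and 11.0 CPM (7.12 to 16.2). Mir133a-2, its partner on chromosome 2 at 180398379 to 180398482, plus strand, had 6 and 11 counts, or 9.39 CPM (3.45 to 20.4) and 4.84 CPM (2.42 to 8.66). Neither overlaps another gene of the GENCODE annotation. Mir133a-2 was the lowest of these 4 genes in each library. Over the libraries the genes had 16.9 ± 7.09, 14.0 ± 2.36, 12.5 ± 2.18 and 7.12 ± 3.22 CPM in the order Mir133b, Mir133a-1, Mir1a-1 and Mir133a-2. Their intervals overlapped within each library, and the order of Mir133b, Mir133a-1 and Mir1a-1 is not fixed. As a share of the counts of 2 genes in replicate 2, Mir133a-1 held 71.8% (55.1 to 85.0) against Mir133a-2. Mir1a-1 held 69.4% (51.9 to 83.7) against Mir133a-2 in that library. In replicate 1 both leads were within counting error. The 4 genes ranked between 224 and 273 by mean CPM.

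**Figure D1:**
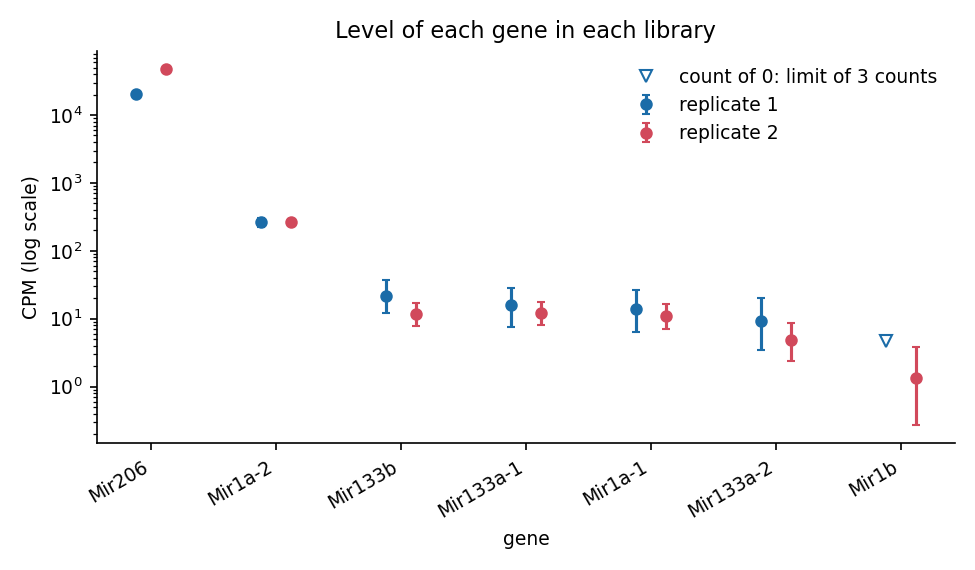
Level of the 7 genes in CPM on a log axis, 1 point per library, with exact 95% intervals of counting error as bars and, for a count of 0, an open triangle at the limit of 3 counts. Mir206 lies at 20325 and 48078 CPM, Mir1a-2 at 261 and 269 CPM, and the points of the next 4 genes lie between 4.84 and 21.9 CPM.

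Counted together, 6 of the 7 genes were detected, meaning 2 CPM or more in each library. The 7 genes summed to 20647 CPM in replicate 1 and 48388 in replicate 2. Mir206 gave 98.4% and 99.4% of these sums. The other 6 genes summed to 322 and 310 CPM (316 ± 8.63, SD, n = 2), so Mir206 had 63.0 and 155 times their sum. The multi-mapping total was 13537 and 14860 times the summed counts of the 6. Since each of these 6 shares sequence with another of the set, their assigned counts are no measure of the abundance of mature miR-1 or miR-133.

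**Figure D2:**
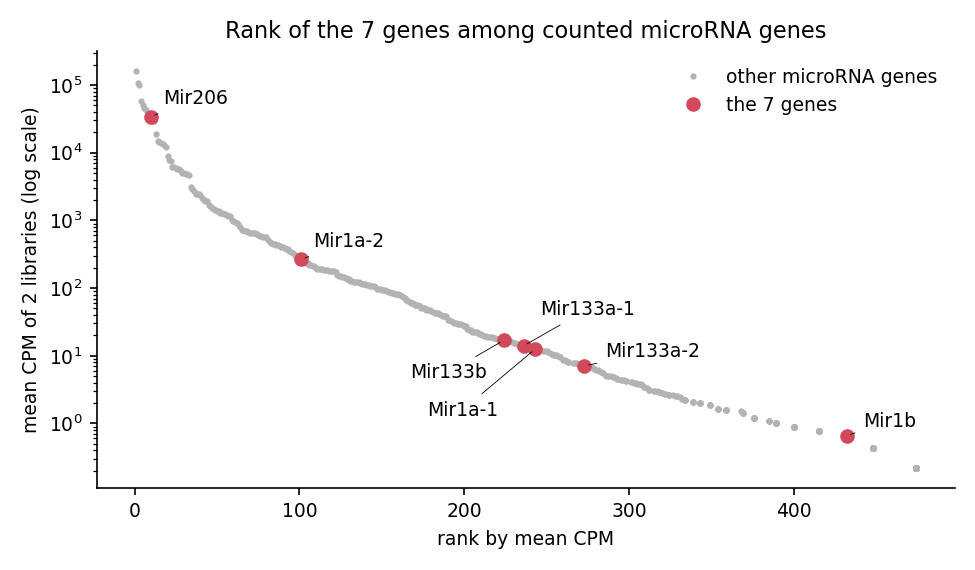
Mean CPM of the 2 libraries on a log axis against rank, for every microRNA gene with a count (grey) and the 7 genes (red). Mir206 stands at rank 10 and Mir1a-2 at rank 101, and Mir133b, Mir133a-1, Mir1a-1 and Mir133a-2 fall between ranks 224 and 273.

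Mir206 stood high among genes that, like it, share no stretch of 20 bases. Outside the set, 227 of 1114 such genes were detected, and 221 of the 227 had a lower mean level than Mir206. Genes that do share a stretch were detected in 70 of 1081 cases, with a median of 119 CPM among the detected, against 87.1 CPM among the detected that share none. Mir1a-2 was above 48 of these 70, Mir133a-1 above 15, Mir133b above 19, Mir1a-1 above 14 and Mir133a-2 above 7. Not every gene counted as sharing was low. Mir378a, the most abundant of all, had 163450 CPM, but only 1 of its 47 windows of 20 bases was shared. At 22 bases Mir378a no longer counted as sharing, and the most abundant sharing gene was Mirlet7f-2, at 4789 CPM. With 22 bases the median of the sharing genes was 71.6 CPM and that of the others 96.5 CPM, so the order of these medians turned with the length required.

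**Figure D3:**
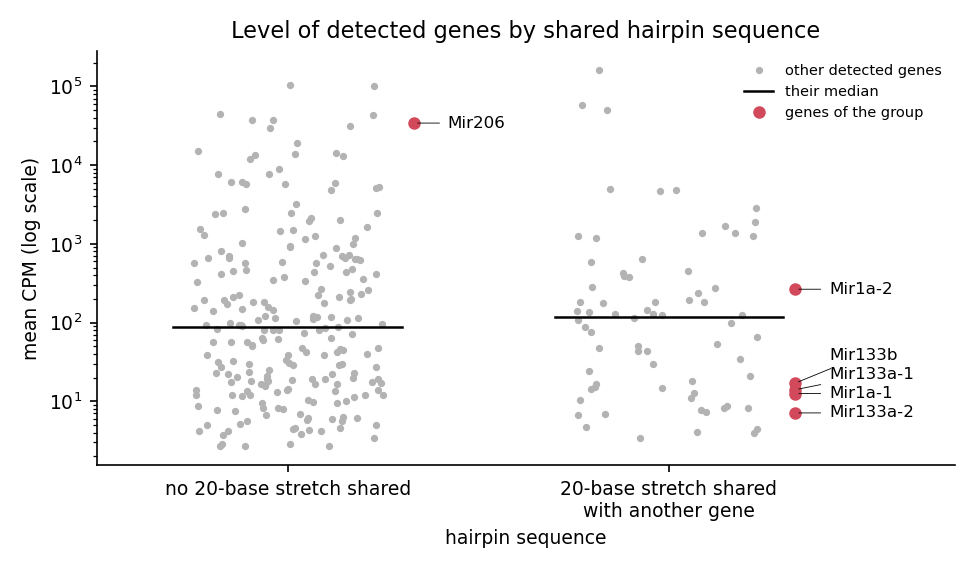
Mean CPM on a log axis for detected genes whose hairpin shares no 20-base stretch with a microRNA gene elsewhere (left) and for those that do (right), with genes outside the set in grey, their median as a black line and the genes of the set in red. Mir206 lies near the top of the left column, and Mir133b, Mir133a-1, Mir1a-1 and Mir133a-2 lie below the median of the right column.

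Other families whose mature sequence is known to be carried by paired genes gave assigned sums from 33.1 CPM (Mir29b-1 with Mir29b-2) to 1658 CPM (Mir16-1 with Mir16-2). Mir1a-1 with Mir1a-2 summed to 278 CPM, inside this range, and Mir133a-1 with Mir133a-2 to 21.1 CPM, below all 6 pairs listed. Within the miR-1 pair, Mir1a-2 held 94.9% (90.5 to 97.6) of the counts in replicate 1 and 96.1% (94.3 to 97.4) in replicate 2. Within the miR-133a pair, Mir133a-1 held 62.5% (35.4 to 84.8) and 71.8% (55.1 to 85.0). Mir1a-2 led its copy in each library beyond counting error, and Mir133a-1 did so in replicate 2 alone. These shares rest on reads that fall outside the shared stretch or extend past it, and are no measure of how much of the mature RNA each gene makes.

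The 3 neighbouring pairs of the set were uneven, and not to the same degree. Mir206 and Mir133b lie 3686 bases apart, and Mir206 held 99.892% (99.819 to 99.941) of the pair's counts in replicate 1 and 99.975% (99.964 to 99.984) in replicate 2. Mir206 thus had 927 and 4046 times the counts of its miR-133 partner. Mir1a-2 and Mir133a-1 lie 2504 bases apart, and Mir1a-2 held 94.4% (89.9 to 97.3) and 95.6% (93.7 to 97.1), or 16.7 and 21.8 times its partner. Mir1a-1 and Mir133a-2 lie 9254 bases apart, and Mir1a-1 held 60.0% (32.3 to 83.7) and 69.4% (51.9 to 83.7). The miR-1 or miR-206 gene was the higher of its pair in all 3 pairs and in each library, within counting error for Mir1a-1 in replicate 1.

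Uneven pairs were common in the data. Among 109 other pairs of neighbouring microRNA genes on 1 strand within 10000 bases and with 10 or more counts in each library, the leading gene held a median of 91.9% of counts in replicate 1 and 92.5% in replicate 2. The share of Mir206 was reached or passed by 23 of the 109 in replicate 1 and 22 in replicate 2, and that of Mir1a-2 by 52 in each. The pairs that reached the share of Mir206 were all at 100%, with no count for the lesser gene. They summed to at most 697 counts in replicate 1 and 1861 in replicate 2, beside 12997 and 109267 for Mir206 with Mir133b. Where both genes were counted, no other pair reached the share of Mir206 in either library. The highest were Mir29a with Mir29b-1 at 99.766% in replicate 1 and Mir20a with Mir19b-1 at 99.904% in replicate 2. Many of the 109 pairs lie in the same clusters and share genes. From replicate 1 to replicate 2 the ratio of Mir206 to Mir133b rose 4.36-fold. In 6 of 84 other pairs counted throughout, the ratio changed at least as far in either direction, whether or not the pair became more uneven. The Mir133b counts behind this ratio are 14 and 27.

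**Figure D4:**
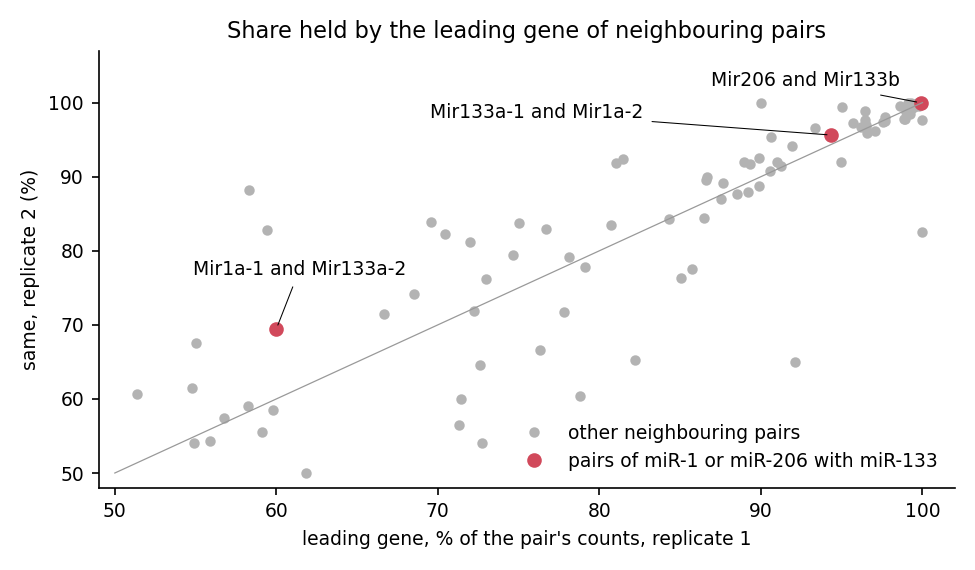
Share of a neighbouring pair's counts held by the leading gene in that library, in percent, replicate 1 on the horizontal axis and replicate 2 on the vertical, with 109 other pairs in grey, the 3 pairs of the set in red and a line of equality. Mir206 with Mir133b lies near 100% in each library, Mir1a-2 with Mir133a-1 at 94.4% and 95.6%, and Mir1a-1 with Mir133a-2 at 60.0% and 69.4%.

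Mir1b is annotated over Mir1a-2 on the opposite strand, at 10785446 to 10785567 of chromosome 18, plus strand, and it was near the limit of detection. It had 0 counts in replicate 1 and 3 in replicate 2, or 1.32 CPM (0.272 to 3.86). For the count of 0 in replicate 1, the limit of 3 counts is 4.70 CPM where reads match 1 place. The exact interval reaches 5.77 CPM. At this position reads of the Mir1b strand were 0 of 167 in replicate 1. There the limit of 3 counts is a share of 1.80%, and the exact interval reaches 2.18%. In replicate 2 they were 3 of 614, or 0.489% (0.101 to 1.42).

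In replicate 2, opposite-strand reads were rarer at genes with no microRNA gene opposite than at the Mir1a-2 position. The 0 of 167 reads at that position in replicate 1 allow no such comparison. Over the 2138 genes with no microRNA gene opposite, opposite-strand reads were 0.00179% (0.000772 to 0.00353) of counts in replicate 1 and 0.00258% (0.00185 to 0.00350) in replicate 2. The 5 genes of the set with no microRNA gene opposite had 0 such reads in each library, beside 13022 and 109331 reads on their own strand. Among 20 other pairs of microRNA genes on opposite strands with 100 or more counts in replicate 2, 15 had 0 counts for the lesser gene in that library, and 2 had a larger lesser share than Mir1b. When strand was ignored, Mir1a-2 and Mir1b had 0 counts in each library, as their reads then fell to 2 genes at once.

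Of the 6 genes of the set that could be tested, only Mir206 differed between the libraries by more than counting error. Each gene with 10 or more counts over the libraries, 311 in all, was tested by an exact two-sided binomial test with Benjamini-Hochberg adjustment at 0.05. Of the 6 genes of the set tested, 1 was called and 5 were not, while 40.5% of all tested genes were called, so 1 in 6 is no high share. Mir206 was 2.37-fold higher in replicate 2 (2.32 to 2.41), a log2 ratio of 1.24, and 23.2% of all tested genes were called higher there. The split of calls turned with scaling, from 72 higher and 54 lower to 55 higher (17.7%) and 69 lower with TMM. The test sets 1 library against the other and says nothing of mice or conditions. When the spread between the libraries over all genes was counted as noise, with edgeR's exact test and a dispersion common to all genes, Mir206 was not called (adjusted p = 0.605, unadjusted p = 0.0312), and 2 of 311 genes were (0.643%), with 20 genes at an unadjusted p under 0.05.

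The other 5 genes gave ratios with wide intervals, all of which include 1. In the same exact binomial test, with Benjamini-Hochberg adjusted values, Mir1a-2 was at 1.03-fold (0.865 to 1.23, adjusted p = 0.926), and its direction turned with TMM scaling, from a log2 ratio of 0.04 to -0.05. Mir133b was at 0.542-fold (0.275 to 1.12, adjusted p = 0.174), Mir133a-2 at 0.515-fold (0.175 to 1.70, adjusted p = 0.409), Mir1a-1 at 0.781-fold (0.353 to 1.90, adjusted p = 0.735) and Mir133a-1 at 0.787-fold (0.371 to 1.82, adjusted p = 0.758). At this depth a 2-fold difference of Mir1a-2 lies outside the interval, while no change and a 2-fold fall both lie inside that of Mir133a-2. The median log2 ratio of the 6 was -0.40, beside 0.04 for all 311 genes, and 2 of the 6 were above 0, beside 52.1% of all.

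**Figure D5:**
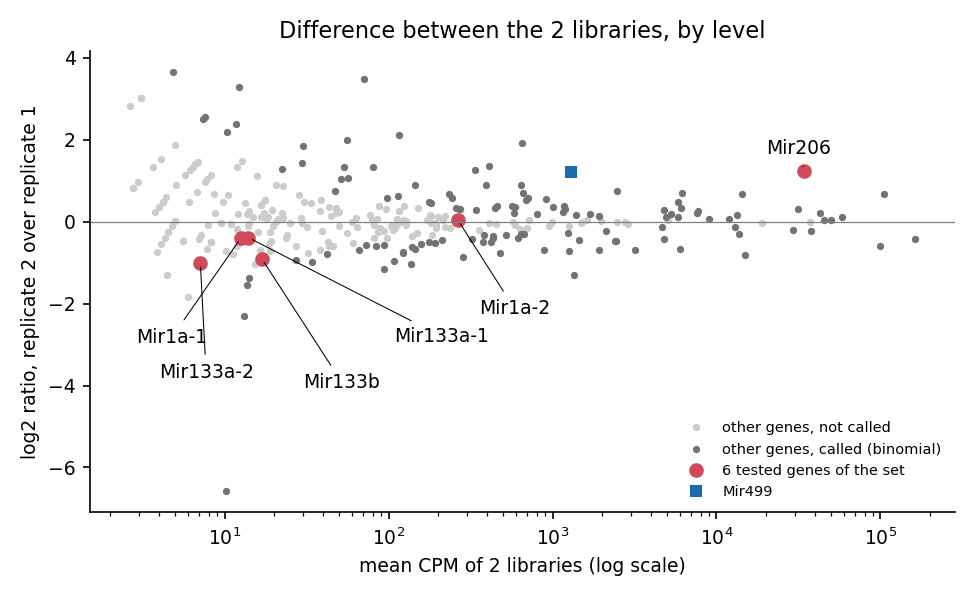
Log2 ratio of replicate 2 over replicate 1 against mean CPM on a log axis, for 311 genes with 10 or more counts, with genes called by the binomial test in dark grey and others in light grey. Mir206 lies at 1.24 far to the right, level with Mir499 (blue square) at 1.21, and the 5 other tested genes of the set lie between -1.01 and 0.04.

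Genes outside the set that share a link to striated muscle were read for comparison. Among genes with a mean of 1000 CPM or more, the 3 nearest to Mir206 in log2 ratio over the 2 libraries were Mir499 at 1.21, Mir99b at 0.74 and Mir127 at 0.70. Below that level Mir342 (197 and 473 CPM) was nearer to Mir206 than Mir499 was, at 1.26. Mir499, in an intron of the slow-type myosin gene Myh7b, had 784 CPM in replicate 1 and 1819 in replicate 2. Of the 5 further striated muscle genes listed, 4 were found among the counted symbols and 3 of these were called higher in replicate 2: Mir499, Mir208b (564 and 819 CPM) and Mir486 (889 and 1133 CPM), beside 23.2% of all tested genes called higher. With edgeR's exact test none of the 4 was called, with an adjusted p of 0.605 for Mir499 and 1 for the others, and 1 gene (Mir499) had an unadjusted p under 0.05. Mir208a, hosted by the cardiac gene Myh6, had 4 and 40 counts and was not called (adjusted p = 0.0993, exact binomial test).

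Markers of other cells in the tissue also differed between the libraries, some higher and some lower in replicate 2, and their part in the difference of Mir206 was not tested. In replicates 1 and 2 the endothelial gene Mir126a had 81286 and 129798 CPM, and the smooth muscle genes Mir143 and Mir145a summed to 123068 and 81451 CPM. The slow-fibre genes Mir499 and Mir208b summed to 1348 and 2637 CPM, and the erythroid pair to 6176 and 4688 CPM. The 5 fibroblast genes summed to 19699 and 11795 CPM, most of it Mir21a (19072 and 10900 CPM), while Mir214 was called higher in replicate 2 (575 and 853 CPM), for 1 called higher, 2 lower and Mir199a-1 without a count. The 4 leukocyte genes summed to 2542 and 2889 CPM, with 2 called higher and Mir142 called lower (246 and 180 CPM). These calls are of the exact binomial test, which called 23.2% of all tested genes higher and 17.4% lower. By edgeR's exact test 2 of all 311 tested genes were called. The 4 epithelial genes summed to 208 and 207 CPM, most of it Mir203 (169 and 174 CPM). Of these 4, Mir200c was called lower in the binomial test (20.4 and 7.92 CPM). Mir122 with Mir375, of liver and islet, summed to 18.8 and 35.6 CPM. Of 7 neural genes 5 had no count, all of them genes that share a 20-base stretch, while Mir137, the one that shares none, had 6 and 50 counts. Fewer cells of a type and less RNA per cell cannot be told apart in whole tissue. As a check of the gastrocnemius label, the skeletal muscle gene Mir206 ranked 12th in replicate 1 and 6th in replicate 2. The cardiac gene Mir208a was at 6.26 and 17.6 CPM. The check rests on Mir206, since Mir133b, the other skeletal muscle gene, had 21.9 and 11.9 CPM, below Mir208a in replicate 2. By mean CPM the striated muscle genes Mir1a-1 (12.5), Mir133a-1 (14.0) and Mir133a-2 (7.12) were near Mir208a (11.9). Mir1a-2 (265) and Mir486 (1011) were above it.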

How the data were processed

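Small RNA under 30 bases was sequenced from gastrocnemius of 2 biological replicates, 1 library each, per the labels. The authors deposited raw counts of reads per microRNA gene on mm10 with GENCODE M21, per the labels and the text deposited with the tables. No source used here gives the aligner or the counter. The tables have no header. Judged by their values, the first of 3 count columns ignores strand, the second holds the gene's own strand and the third the opposite one. The second was used, with totals taken over gene rows alone.

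Counts were divided by these totals and multiplied by 1000000. Symbols, positions and hairpins came from GENCODE M21 and mature sequences from RefSeq (GRCm38.p6). The rest of the genome was not searched for copies. Log2 ratios used a prior count of 0.5. The exact binomial script was tested on simulated data. Named genes are the 7 genes, 5 further striated muscle genes (4 found), the 2 genes on either side of Mir206 in level, the 3 nearest in log2 ratio, 12 genes of paired copies and cell type markers. Any other gene was named after its values were seen. Members and lists were chosen with earlier results of these data known. Alternatives were other scalings (TMM, DESeq2 size factors), totals, count columns, minimums, shared lengths, edgeR's exact test and leaving out a replicate. Software was Python 3.11.15, scipy 1.17.1, R 4.3.3, edgeR 4.0.16 and DESeq2 1.42.0.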

Additional observations from a re-analysis of the deposited data

How the results depend on the processing

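No paired analysis was possible because the series has 1 group. Of the alternatives compared with the values above, 90 kept direction and side of the threshold, or moved by less than the spread. With the column that ignores strand, Mir133b was at 24.1 CPM, Mir1a-1 at 17.9 and Mir133a-1 at 20.0, while Mir1a-2 fell to 0 CPM and to 0% of its pair. Without the most abundant gene in the total, Mir1a-1 was at 15.1 CPM, Mir133a-1 at 16.8 and Mir1a-2 at 317. Apart from Mir1a-2 at 0, these shifts follow from smaller totals. With TMM scaling the log2 ratio of Mir1a-2, replicate 2 over replicate 1, was -0.046, and TMM moved all log2 ratios by -0.083. By edgeR's exact test the 126 called genes became 2, and Mir206 (log2 ratio 1.24) was not called. With 22 shared bases the median of sharing genes was 71.6 CPM. Leaving out either replicate put Mir206 between 20325 and 48078 CPM. The miR-133 genes and Mir1a-1 had between 6 and 28 counts a library, which sets the width of their intervals.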

Other observations

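Mir133c, a microRNA gene with the miR-133 name, had no count in either library and shared no 20-base stretch with another counted gene. Besides the miR-1 hairpins, where its letters also stand, the seed of miR-206-3p is carried in the RefSeq table by 2 mature RNAs of genes outside the 7, Mir6349 and Mir6382, which had no count in either library.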
